A study of Mus musculus with 4 samples.

Results

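The genes of 5 transcription factors that build the myeloid lineage were examined: Spi1, which encodes PU.1, and Cebpa, Cebpb, Cebpd and Cebpe of the C/EBP family. They were chosen by name, as 5 of 21887 protein-coding genes. Each locus was the gene body with 50 kb on either side, and every accessible interval that the authors called there was taken, 282 of 326193 over the 4 libraries. Overlapping intervals of the libraries were merged, which gave 101 of 120423 regions.

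PU.1 is an ETS-family factor needed for macrophages, granulocytes and B cells, and it holds open many myeloid enhancers together with C/EBP factors. C/EBPα takes common myeloid progenitors towards granulocyte-monocyte progenitors, C/EBPβ is known for monocyte survival and for granulocyte production under stress, C/EBPδ for inflammatory gene induction, and C/EBPε for the last steps of granulocyte maturation. The levels of these factors are set in part by distal enhancers, of which those before Spi1 and after Cebpa and Cebpe are well studied in the mouse.

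The libraries are Omni-ATAC-seq, in which a transposase cuts open chromatin, from bone-marrow-derived cells of C57BL/6J mice cultured in vitro. There was 1 library each of Cxcr3-/- monocytes, WT monocytes, Cxcr3-/- progenitors and WT progenitors. The progenitors carry the joint label of common myeloid progenitor and granulocyte-monocyte progenitor, written CMP/GMP here. Cxcr3-/- cells lack the chemokine receptor CXCR3 by knockout, and all 4 libraries share the strain and a hepatocellular carcinoma label. The series gave the liver carcinogen diethylnitrosamine with CCl4 to mice. Age and whether the cultured cells came from treated mice are not given in the sources used here. With 1 library a group no difference has a replicate check and no p-value was computed. The intervals given are 95% counting intervals, which cover counting error only, since sequenced tags may not be independent molecules.

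Signal is given as tags piled up at the strongest summit of a region, and as scaled tags, divided by a factor of each library so that the regions called in all 4 libraries have a median ratio near 1. The 4 lists held 69521 to 98257 intervals with a median of 21 to 29 tags, and background ran from 95.6 to 194 tags per 10 kb. This background was inferred from the lowest background expected at any called summit, per base of the library's shortest interval of 100 to 125 bp. Scaling by that background instead would add 0.19 to every log2 ratio of Cxcr3-/- over WT in CMP/GMP and −0.37 in monocytes. It would add 0.32 to every ratio of monocytes over CMP/GMP in Cxcr3-/- cells and 0.87 in WT cells, so cell-type directions below hold relative to the regions that all libraries share. Within 1 kb of 6 CMP/GMP marker genes the summed signal was 376 scaled tags in Cxcr3-/- monocytes and 323 in WT monocytes, against 671 in Cxcr3-/- CMP/GMP and 723 in WT CMP/GMP. Of these markers, Elane had no interval in either monocyte library, and Mpo had none in Cxcr3-/- monocytes. Near 8 monocyte markers the sums were 1303 and 1407 scaled tags in Cxcr3-/- and WT monocytes, against 937 and 786 in Cxcr3-/- and WT CMP/GMP. With 50 kb on either side, 6 of 8 monocyte markers were higher in monocytes in Cxcr3-/- cells and 6 of 7 in WT cells. Ly6c2 went the other way, with log2 ratios of monocytes over CMP/GMP of −0.66 in Cxcr3-/- cells and −1.37 in WT cells. Of 6 CMP/GMP markers, 5 were lower in monocytes in Cxcr3-/- cells and 6 in WT cells, with Cd34 at 0.43 and −0.23. Of 4 T-cell markers, Cd3e and Cd3g had no interval in any library and Lck and Gata3 had one in each, with summed signals of 219 and 272 scaled tags in Cxcr3-/- and WT monocytes, against 234 and 201 in Cxcr3-/- and WT CMP/GMP. In such bulk libraries fewer cells of a type and less accessible chromatin per cell cannot be told apart.

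The 5 loci held 61 intervals in Cxcr3-/- monocytes and 85 in WT monocytes, against 73 in Cxcr3-/- CMP/GMP and 63 in WT CMP/GMP. When each list was cut to the length of the shortest, the counts were 59, 62, 63 and 63 in the same order of libraries. The larger count of WT monocytes thus came with a longer list. Of the 101 regions, 41 were called in all 4 libraries, or 40.6%, against 37.0% of all regions. Cebpb and Spi1 had the highest such shares, 47.8% of 23 regions and 45.8% of 24. Cebpd had the lowest, 23.1% of 13.

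**Figure D1:**
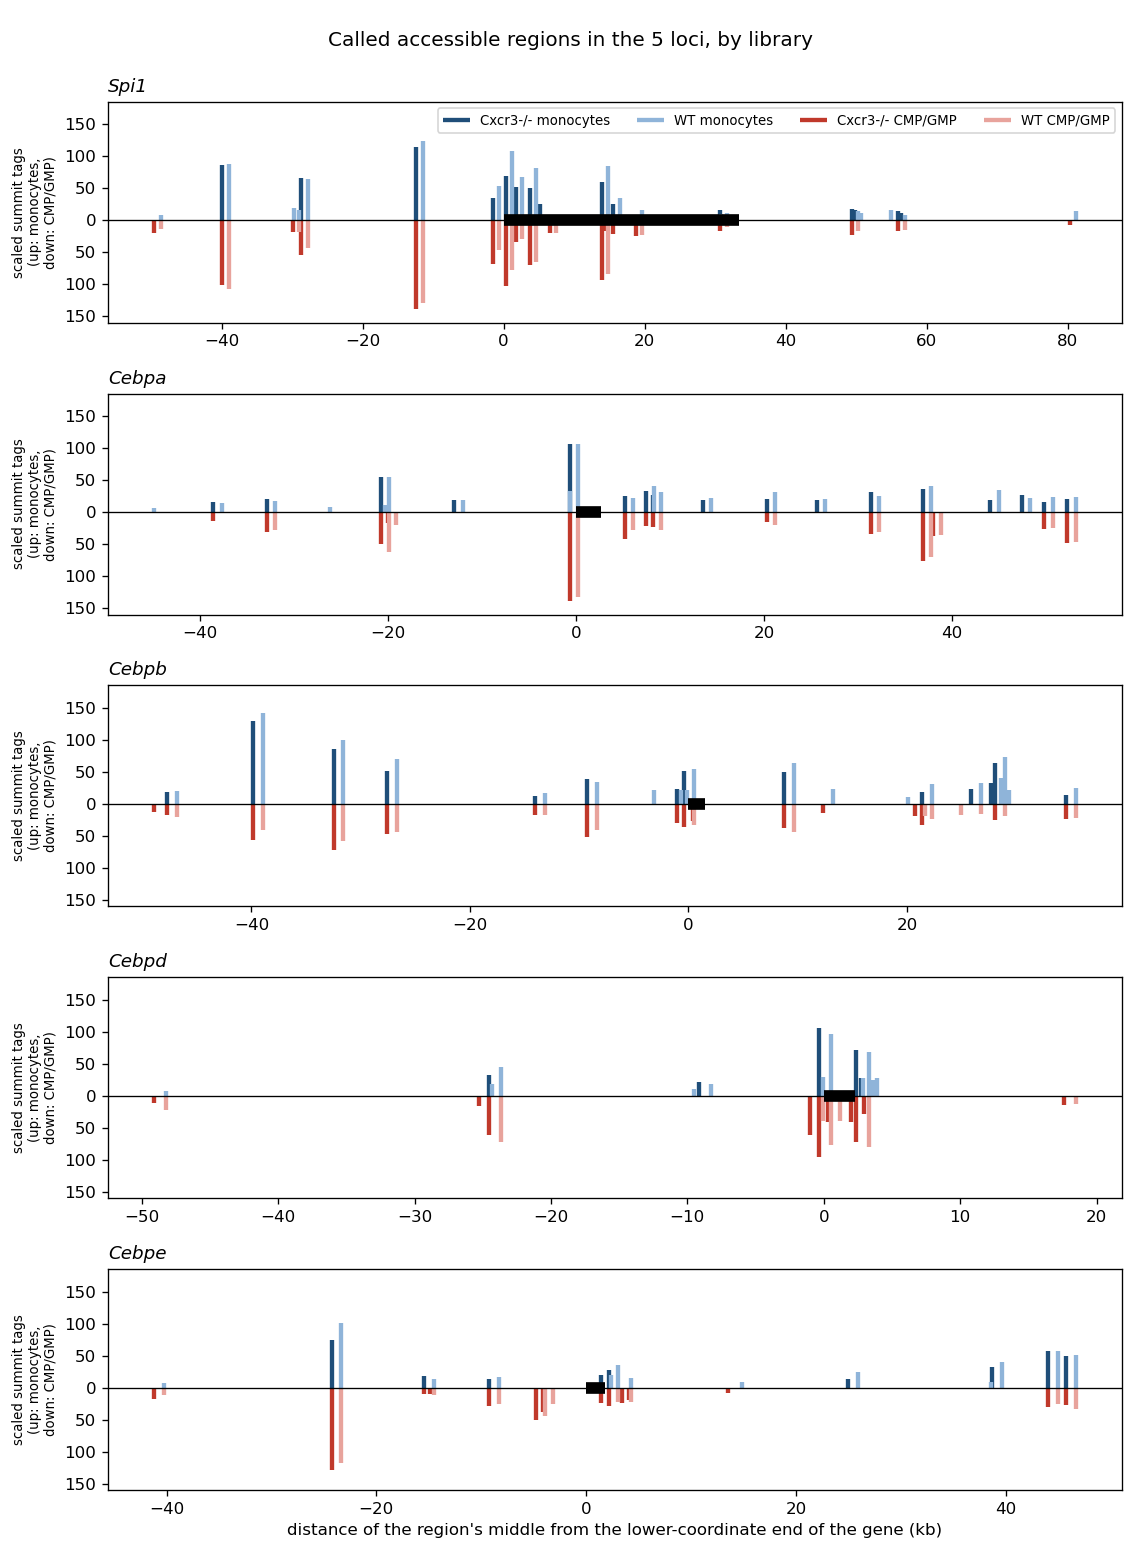
Scaled summit tags of every called region against the distance of its middle from the lower-coordinate end of the gene in kb, with monocyte libraries drawn upwards, CMP/GMP libraries downwards and the gene body as a black bar. Lines of Cxcr3-/- and WT libraries are moved apart by a fixed step so that both show. The upward lines of Cebpb stand tallest about 39 kb below the gene, and the downward pair just below Cebpe has no upward counterpart.

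Spi1 lies on chromosome 2 from 91082374 to 91115759 in mm10. Its strongest signal inside the gene lay at 2 places, chr2:91082846-91083365 close to the lower end of the annotated body and chr2:91096491-91096976 within it. They lie 13.6 kb apart. By that distance alone the first matches the well-studied upstream regulatory element, which binds PU.1 itself and RUNX1 in mouse cells and lies about 14 kb before the main promoter. The upstream region had 68.5 scaled tags in Cxcr3-/- monocytes and 109 in WT monocytes, against 103 in Cxcr3-/- CMP/GMP and 77.5 in WT CMP/GMP. The unscaled tags were 58, 117, 140 and 64 in the same order of libraries. Thus Cxcr3-/- was the lower of the monocyte libraries and the higher of the CMP/GMP libraries at this element.

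The log2 ratio of Cxcr3-/- over WT at the upstream region was −0.67 in monocytes (−1.15 to −0.20) and 0.42 in CMP/GMP (−0.02 to 0.87). At the inner region the scaled tags were 60.3 in Cxcr3-/- monocytes and 84.6 in WT monocytes, against 93.8 in Cxcr3-/- CMP/GMP and 83.6 in WT CMP/GMP. Its ratio of Cxcr3-/- over WT was −0.49 in monocytes (−1.01 to 0.02) and 0.17 in CMP/GMP (−0.27 to 0.61). The monocyte pair differed more than the CMP/GMP pair at both places, and 1 of these 4 intervals leaves out 0.

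The same order held along the gene. Within the body and 2 kb on either side, a window chosen after the values were seen, 7 regions were called in both monocyte libraries, and 6 of them were lower in Cxcr3-/- monocytes. Their tags summed to 260 in Cxcr3-/- monocytes and 475 in WT monocytes, a scaled log2 ratio of −0.52 (−0.75 to −0.30). In CMP/GMP all 8 shared regions of that window were higher in Cxcr3-/- cells, with 582 tags in Cxcr3-/- CMP/GMP and 293 in WT CMP/GMP and a log2 ratio of 0.28 (0.07 to 0.48). These sign counts include regions with a mean below 30 tags. In monocytes these were chr2:91098268-91098460, at −0.47 (−1.32 to 0.34), and chr2:91113428-91113631, at 0.35 (−0.88 to 1.57). In CMP/GMP these were chr2:91089177-91089629, chr2:91101501-91101658 and chr2:91113428-91113631, each with a counting interval that holds 0. Among the 2907 genes with at least 5 regions shared by the monocyte libraries in such a window, the Spi1 ratio stood at percentile 0.619, and in CMP/GMP at percentile 97.0 of 2255 genes. These ranks are favoured by the choice of the window, and over the whole locus Spi1 stood at percentiles 17.5 in monocytes and 91.1 in CMP/GMP.

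Summed over the regions outside that window, among them those at Rapsn, Psmc3, Slc39a13 and Mybpc3, the ratios were nearer to 0. Weak single regions lay farther out, such as chr2:91138680-91138902 in Madd at 0.76 in monocytes (−0.61 to 2.19). Of the outside regions shared within a pair, 2 of 6 were lower in Cxcr3-/- monocytes, and 6 of 7 were higher in Cxcr3-/- CMP/GMP. Their summed ratio of Cxcr3-/- over WT was 0.01 in monocytes (−0.23 to 0.25) and 0.11 in CMP/GMP (−0.10 to 0.33). The strongest of them, chr2:91070006-91070828 at the start of Slc39a13, a zinc transporter gene, had 115 scaled tags in Cxcr3-/- monocytes and 124 in WT monocytes, against 139 in Cxcr3-/- CMP/GMP and 128 in WT CMP/GMP. Over the whole Spi1 locus the ratio was −0.28 in monocytes (−0.44 to −0.12) and 0.20 in CMP/GMP (0.05 to 0.35). The intervals of both leave out 0 on opposite sides, and whether the cell types differ was not tested. Over their whole loci Cebpa, Cebpb and Cebpe had the same signs as Spi1 in each pair.

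Gene-dense loci as a class had lower ratios in the monocyte pair. A window of 1 Mb centred on Spi1 holds 24 protein-coding genes, Spi1 included. Genes in that bin of gene density, 20 to 32 genes, had a median log2 ratio of −0.15 in monocytes and 0.06 in CMP/GMP. With that median subtracted, the ratio of the whole Spi1 locus was −0.18 in monocytes and 0.16 in CMP/GMP. This subtraction was not made for the window near the gene.

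**Figure D2:**
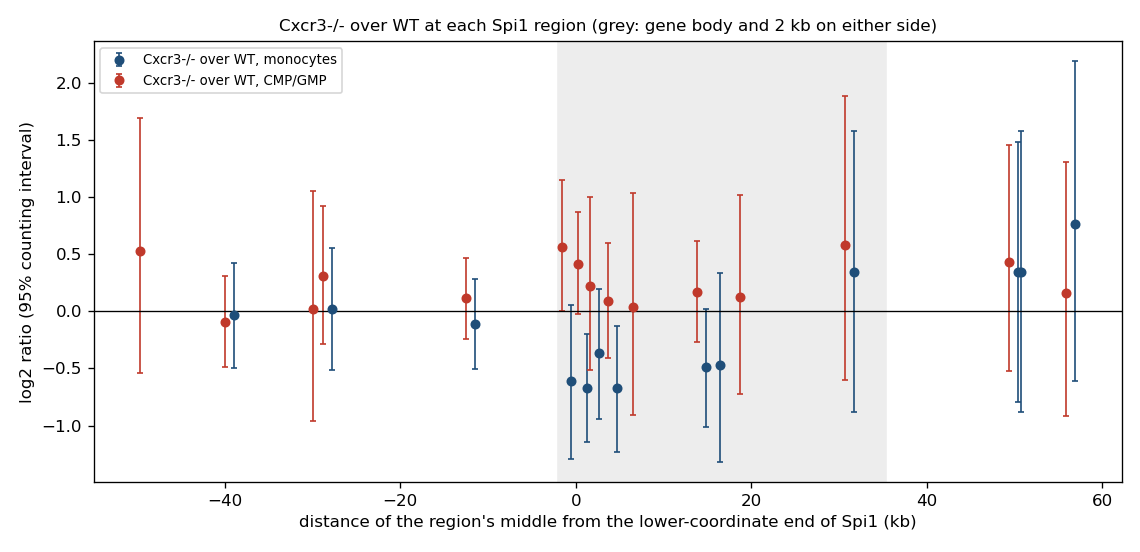
Log2 ratio of Cxcr3-/- over WT at each Spi1 region called in both libraries of a pair, against the distance from the lower end of the gene in kb, for monocytes and for CMP/GMP, with bars for the 95% counting interval. In the grey window of the gene body and 2 kb on either side, 6 of 7 monocyte points lie below 0 and all 8 CMP/GMP points above it, with wide bars at most single regions.

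Between cell types the sign of the Spi1 ratio differed between the genotypes, which was not tested. Over the whole locus the ratio of monocytes over CMP/GMP was −0.28 in Cxcr3-/- cells (−0.44 to −0.13), at percentile 23.3 of genes. In WT cells it was 0.14 (−0.02 to 0.30), at percentile 64.9, and that counting interval holds 0. Near the gene the ratio of monocytes over CMP/GMP was −0.40 in Cxcr3-/- cells (−0.62 to −0.18) and 0.34 in WT cells (0.12 to 0.56). With background scaling these were −0.08 and 1.21. These comparisons reuse the libraries of the genotype comparisons and add no separate evidence. Of the 11 regions called in all 4 libraries, 2 were higher in monocytes in both genotypes. The one inside the body, chr2:91084261-91084818, had 52.0 scaled tags in Cxcr3-/- monocytes and 67.0 in WT monocytes, against 34.0 in Cxcr3-/- CMP/GMP and 29.1 in WT CMP/GMP. Its ratio was 0.61 in Cxcr3-/- cells (−0.02 to 1.24) and 1.20 in WT cells (0.52 to 1.94). The other, chr2:91053739-91054491 at Psmc3, was at 0.30 in Cxcr3-/- cells (−0.23 to 0.82) and 0.58 in WT cells (−0.02 to 1.20). The region just below the gene, chr2:91081165-91081411, had the lowest cell-type ratio of the locus, −0.94 in Cxcr3-/- cells (−1.58 to −0.33), and 0.23 in WT cells (−0.39 to 0.86). One weak region at chr2:91089177-91089629 was called in both CMP/GMP libraries alone, with 27 tags in Cxcr3-/- and 16 in WT, and one in Mybpc3 at chr2:91132500-91132656 in both monocyte libraries alone, with 13 tags in each.

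Cebpa lies on chromosome 7 from 35119293 to 35121928 and is read towards higher coordinates. Its start region, chr7:35118469-35119703, was the most accessible of the locus in every library. It had 106 scaled tags in Cxcr3-/- monocytes and 106 in WT monocytes, against 138 in Cxcr3-/- CMP/GMP and 133 in WT CMP/GMP. The ratio of monocytes over CMP/GMP was −0.38 in Cxcr3-/- cells and −0.33 in WT cells, and the WT one turned to 0.55 with background scaling. The genotypes were close in both cell types, with log2 ratios of Cxcr3-/- over WT of 0.00 in monocytes (−0.41 to 0.42) and 0.05 in CMP/GMP (−0.30 to 0.40). Each counting interval still allows a difference in either direction.

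The Cebpa element about 37 kb after the gene, an enhancer used in mouse myeloid progenitors, was found by distance at chr7:35156290-35156964, 37.3 kb from the lower gene end and inside the lncRNA gene Gm35889. It had 35.4 scaled tags in Cxcr3-/- monocytes and 40.9 in WT monocytes, against 76.8 in Cxcr3-/- CMP/GMP and 70.2 in WT CMP/GMP. Both monocyte libraries were below both CMP/GMP libraries. The ratio of monocytes over CMP/GMP was −1.11 in Cxcr3-/- cells (−1.75 to −0.52) and −0.78 in WT cells (−1.38 to −0.19). The WT ratio turned to 0.10 with background scaling, while the Cxcr3-/- ratio was then −0.80.

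Some other regions of the locus had this order, and others had the opposite one or no clear order. The next region, chr7:35157545-35157848, was called in CMP/GMP alone, with 50 tags in Cxcr3-/- and 30 in WT CMP/GMP. At equal scaled signal the monocyte libraries would have had 31.0 tags in Cxcr3-/- and 39.4 in WT. Farther out, chr7:35171883-35172182 in the lncRNA gene Gm38988 had 20.1 scaled tags in Cxcr3-/- monocytes and 24.2 in WT monocytes, against 48.0 in Cxcr3-/- CMP/GMP and 46.0 in WT CMP/GMP. Its ratios of −1.26 in Cxcr3-/- cells (−2.12 to −0.47) and −0.93 in WT cells (−1.71 to −0.17) were the lowest of the 5 loci among regions with enough tags, and with background scaling they were −0.94 and −0.05. On the other side, chr7:35098618-35099247 was about as strong as the 37 kb element, with mean scaled tags of 55.7 against 55.8. It showed no clear order, with ratios of 0.17 in Cxcr3-/- cells (−0.40 to 0.73) and −0.20 in WT cells (−0.76 to 0.37).

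Cebpa also had the most regions called in monocytes alone, 5 of its 23, at chr7:35106577-35106943, chr7:35133091-35133304, chr7:35145170-35145589, chr7:35163678-35163989 and chr7:35167106-35167277. They make up 21.7% of its regions, against 14.4% of all regions. They were weak, with 16 to 23 tags in Cxcr3-/- monocytes and 21 to 37 in WT monocytes. At equal scaled signal they would have had 26.0 to 36.1 tags in Cxcr3-/- CMP/GMP and 15.9 to 22.0 in WT CMP/GMP. The median called intervals there had 29 and 21 tags, and whether the missing calls reflect lower signal was not tested. The locus thus held both fewer scaled tags at its progenitor enhancer and weak regions called in monocytes alone. Over regions called in both cell types the locus ratio of monocytes over CMP/GMP was −0.36 in Cxcr3-/- cells (−0.55 to −0.17) and −0.33 in WT cells (−0.53 to −0.13), but −0.04 and 0.54 with background scaling.

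Sequences are shown for the Cebpa promoter and for the part of the distal element that the RefSeq promoter table (GRCm38.p6, mm10) covers, since the promoter had close signal in both genotypes and the element had a lower scaled signal in monocytes. The promoter is chr7:35119043-35119292, plus strand, the 250 bases before the annotated start, and its capitals mark a TATA box (TATAAA). The distal part is chr7:35156787-35156964, minus strand, the part of the element in the window of Gm35889, and its capitals mark 2 RUNX motifs (TGTGGT) and 1 GC box (GGGCGG). The summits of the 4 libraries lay below this printed part, at 35156595 to 35156724.
Cebpa promoter: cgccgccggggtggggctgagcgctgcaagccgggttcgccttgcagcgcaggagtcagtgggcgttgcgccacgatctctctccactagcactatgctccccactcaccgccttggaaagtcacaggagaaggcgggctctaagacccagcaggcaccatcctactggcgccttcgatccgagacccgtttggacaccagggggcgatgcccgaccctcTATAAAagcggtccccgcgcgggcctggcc
Cebpa distal element: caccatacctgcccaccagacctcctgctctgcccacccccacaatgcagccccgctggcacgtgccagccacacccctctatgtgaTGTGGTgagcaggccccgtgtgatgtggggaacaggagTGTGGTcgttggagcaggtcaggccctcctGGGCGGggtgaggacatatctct
RUNX letters were found in 10.1% of promoter windows cut to the same 178 bases and GC box letters in 30.9%. The TATA box letters stood in 12.4% of the 250-base windows. Searched on both strands, neither sequence held PU.1 (GAGGAAGT), C/EBP (TTGCNNAA), AP-1 (TGANTCA) or the letters AGATAA, which GATA factors bind. These 4 motifs occur in 2.44%, 9.57%, 6.75% and 9.99% of all 32817 windows of 250 bases. A match is letters in a window and not a measured site. Of the 5 genes, Cebpa and Cebpb were in the table.

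Cebpb, on chromosome 2 from 167688915 to 167690432, was the member with the most added signal in monocytes. Its start region, chr2:167688551-167689383, had 52.0 scaled tags in Cxcr3-/- monocytes and 54.9 in WT monocytes, against 35.4 in Cxcr3-/- CMP/GMP and 32.7 in WT CMP/GMP. The ratio of monocytes over CMP/GMP was 0.55 in Cxcr3-/- cells (−0.07 to 1.17) and 0.75 in WT cells (0.07 to 1.46). The start was higher in both monocyte libraries, by less than some distal regions were.

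The strongest region of the locus, chr2:167649218-167649812, lies 39.4 kb below the gene inside Tmem189, an ether-lipid enzyme gene. It had 130.0 scaled tags in Cxcr3-/- monocytes and 142 in WT monocytes, against 56.1 in Cxcr3-/- CMP/GMP and 41.2 in WT CMP/GMP. The unscaled tags were 110, 153, 76 and 34 in the same order of libraries. Each monocyte library thus held far more scaled signal than either CMP/GMP library, and the ratios were 1.21 in Cxcr3-/- cells (0.78 to 1.65) and 1.79 in WT cells (1.25 to 2.37). Other regions in Tmem189 had smaller ratios. At chr2:167656578-167657178 they were 0.25 in Cxcr3-/- cells (−0.20 to 0.71) and 0.78 in WT cells (0.27 to 1.30). At chr2:167661463-167662140 they were 0.16 in Cxcr3-/- cells (−0.43 to 0.74) and 0.68 in WT cells (0.09 to 1.29).

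On the other side, 28.5 kb above the lower gene end and in no annotated gene, chr2:167717250-167717576 had 63.8 scaled tags in Cxcr3-/- monocytes and 72.6 in WT monocytes, against 25.1 in Cxcr3-/- CMP/GMP and 19.4 in WT CMP/GMP. Its ratios, 1.35 in Cxcr3-/- cells (0.70 to 2.01) and 1.90 in WT cells (1.12 to 2.78), were the highest of the 5 loci among regions with enough tags. Beside it, chr2:167716905-167717160 was called in monocytes alone, with 28 tags in Cxcr3-/- and 44 in WT monocytes. At equal scaled signal the CMP/GMP libraries would have had 50.1 tags in Cxcr3-/- and 30.6 in WT. Some regions went the other way. One, chr2:167709994-167710221, was called in CMP/GMP alone, with 26 tags in Cxcr3-/- and 15 in WT. Another, chr2:167679987-167680214, was at −0.39 in Cxcr3-/- cells (−1.03 to 0.23) and −0.26 in WT cells (−0.98 to 0.47), and the WT value was 0.62 with background scaling. A further one, chr2:167710551-167710919, was at −0.78 in Cxcr3-/- cells (−1.71 to 0.07) and 0.34 in WT cells (−0.50 to 1.22).

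Over the Cebpb locus the ratio of monocytes over CMP/GMP was 0.33 in Cxcr3-/- cells (0.16 to 0.51) and 0.81 in WT cells (0.61 to 1.00), at percentiles 83.9 and 98.8 of all genes with at least 3 shared regions. Without the strongest Tmem189 region it was 0.15 and 0.62, and within 10 kb of the gene 0.10 and 0.39. The locus ratio in Cxcr3-/- cells therefore rested largely on distal regions, which these lists cannot assign to a target. The genotype ratios of the locus were −0.23 in monocytes (−0.40 to −0.07), where the counting interval leaves out 0, and 0.19 in CMP/GMP (−0.01 to 0.39).

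**Figure D3:**
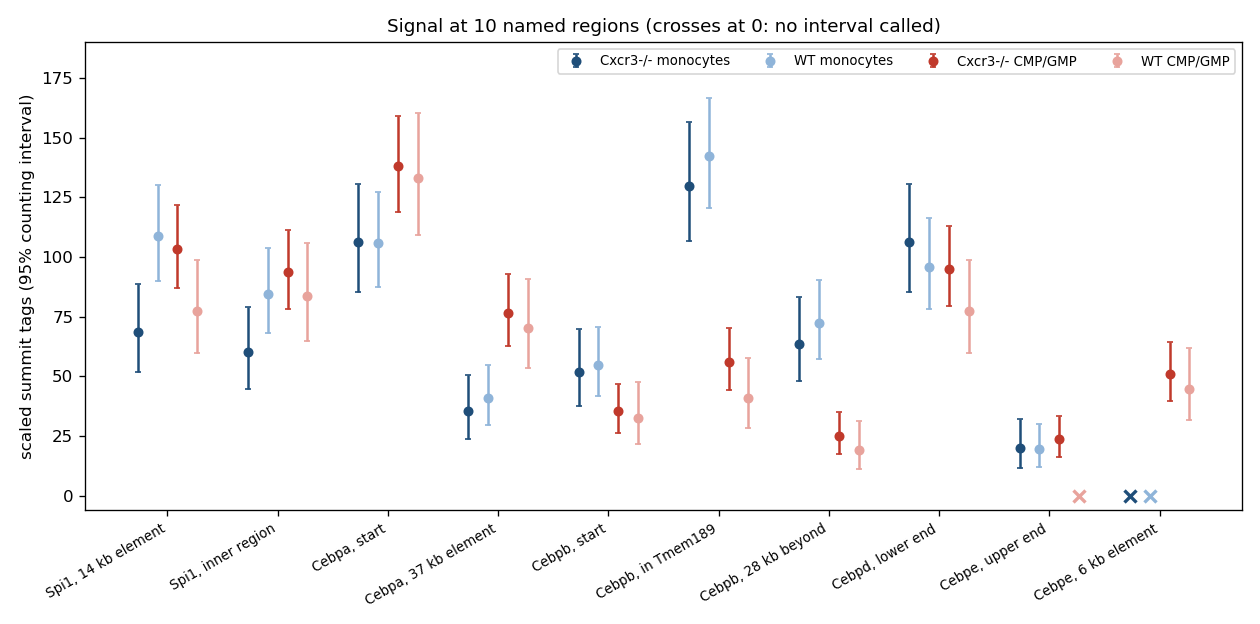
Scaled summit tags with 95% counting intervals at 10 named regions, for Cxcr3-/- and WT monocytes and then Cxcr3-/- and WT CMP/GMP, with a cross at 0 where no interval was called. The distal regions of the Cebpb locus stand higher in monocytes and the Cebpa 37 kb element lower, relative to regions shared by all libraries. The WT direction at the Cebpa element turns with background scaling.

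The Cebpb promoter, chr2:167688665-167688914, plus strand, 250 bases before the annotated start in the RefSeq table, is shown for the start region described above. That region was higher in both monocyte libraries, as measured at summits that lay at 167689017 to 167689107. The printed promoter ends below the summits of all libraries. Its capitals mark 5 GC boxes (GGGCGG, the first pair sharing bases) and 3 CREB/ATF letters (TGACG, one of them as CGTCA on the other strand).
Cebpb promoter: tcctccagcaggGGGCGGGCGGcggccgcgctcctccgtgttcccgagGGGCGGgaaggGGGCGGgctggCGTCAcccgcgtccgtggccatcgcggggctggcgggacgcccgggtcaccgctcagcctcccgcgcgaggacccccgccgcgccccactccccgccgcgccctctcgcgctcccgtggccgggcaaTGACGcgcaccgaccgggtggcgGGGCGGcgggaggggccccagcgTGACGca
Its GC content was 81.6%, against 66.4% in the Cebpa promoter and a median of 52.4% over all windows. GC box letters stood in 32.7% of all windows and the CREB/ATF letters in 17.8%. The searches for the TATA box, the GC box and the CREB/ATF letters were added after the sequences were seen. The RUNX, PU.1, C/EBP, AP-1, GATA and TATA box letters were not found in the Cebpb promoter, and the CREB/ATF letters not in either Cebpa sequence.

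Cebpd lies on chromosome 16 from 15887286 to 15889545. The region over its lower end, chr16:15886899-15887832, had 106 scaled tags in Cxcr3-/- monocytes and 95.8 in WT monocytes, against 95.2 in Cxcr3-/- CMP/GMP and 77.5 in WT CMP/GMP. All 4 of its log2 ratios lay between 0.15 and 0.31, and each counting interval holds 0. At chr16:15889960-15890273, just above the gene in Spidr, a DNA repair scaffold gene, the values were 72.1 and 67.9 scaled tags in Cxcr3-/- and WT monocytes, against 71.6 and 79.9 in Cxcr3-/- and WT CMP/GMP. Both main Cebpd regions were thus close across the libraries.

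Smaller Cebpd regions varied more. The gene body region chr16:15887946-15888171 was called in CMP/GMP alone, with 56 tags in Cxcr3-/- and 33 in WT, and the Spidr region chr16:15905205-15905438 likewise, with 19 in Cxcr3-/- and 11 in WT. Called in monocytes alone were chr16:15878296-15878847, with 18 tags in Cxcr3-/- and 20 in WT, and chr16:15890350-15890568 in Spidr, with 23 in Cxcr3-/- and 26 in WT. Just below the gene, chr16:15886652-15886864 had 62.0 scaled tags in Cxcr3-/- CMP/GMP and 40.0 in WT CMP/GMP, a log2 ratio of 0.63 (0.04 to 1.26), and no interval in Cxcr3-/- monocytes. The region at the end of Mzt2, chr16:15862781-15863558, had the lowest cell-type ratios, −0.87 in Cxcr3-/- cells (−1.55 to −0.24) and −0.65 in WT cells (−1.23 to −0.08), of which the WT one turned to 0.23 with background scaling. The locus ratios of Cebpd ranged from −0.24 to 0.05 over the 4 comparisons, and every counting interval holds 0.

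Cebpe lies on chromosome 14 from 54710363 to 54712174 and is read from its upper end. By distance, the granulocyte enhancer known about 6 kb after its start in the mouse matches chr14:54705706-54706310, 6.17 kb from the upper gene end. This region was called in CMP/GMP alone, with 69 tags in Cxcr3-/- and 37 in WT. So was its neighbour chr14:54706524-54706938, with 52 tags in Cxcr3-/- and 21 in WT. At equal scaled signal the first would have had 40.5 tags in Cxcr3-/- monocytes and 51.5 in WT monocytes, while the median of all called intervals there was 21 tags. A region of equal scaled signal would thus have exceeded the median called interval of both monocyte libraries.

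The region at the Cebpe upper end, chr14:54712716-54713194, was weak in every library, with 27.2 scaled tags in Cxcr3-/- monocytes and 35.3 in WT monocytes, against 28.8 in Cxcr3-/- CMP/GMP and 21.8 in WT CMP/GMP. Its neighbour over the end itself, chr14:54712048-54712481, had 17, 21 and 32 tags in Cxcr3-/- monocytes, WT monocytes and Cxcr3-/- CMP/GMP and no interval in WT CMP/GMP. The Cebpe end was therefore called in monocytes although the enhancer was not.

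Inside Slc7a8, an amino acid transporter gene that fills the upper flank of Cebpe, 2 regions were called in monocytes alone. They were chr14:54735612-54735987, with 12 tags in Cxcr3-/- and 27 in WT, and chr14:54749388-54749631, with 27 in Cxcr3-/- and 43 in WT. Also there, chr14:54754609-54755101 had 57.9 scaled tags in Cxcr3-/- monocytes and 56.7 in WT monocytes, against 29.5 in Cxcr3-/- CMP/GMP and 25.4 in WT CMP/GMP. Its ratios were 0.97 in Cxcr3-/- cells (0.34 to 1.61) and 1.16 in WT cells (0.42 to 1.95). The strongest region of the locus, chr14:54686016-54687105, covers the shared start of Acin1 and 1700123O20Rik and had 74.4 scaled tags in Cxcr3-/- monocytes and 100.5 in WT monocytes, against 128 in Cxcr3-/- CMP/GMP and 117 in WT CMP/GMP. The signal assigned to Cebpe thus includes regions of other genes on both sides, which these lists cannot assign to a target.

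**Figure D4:**
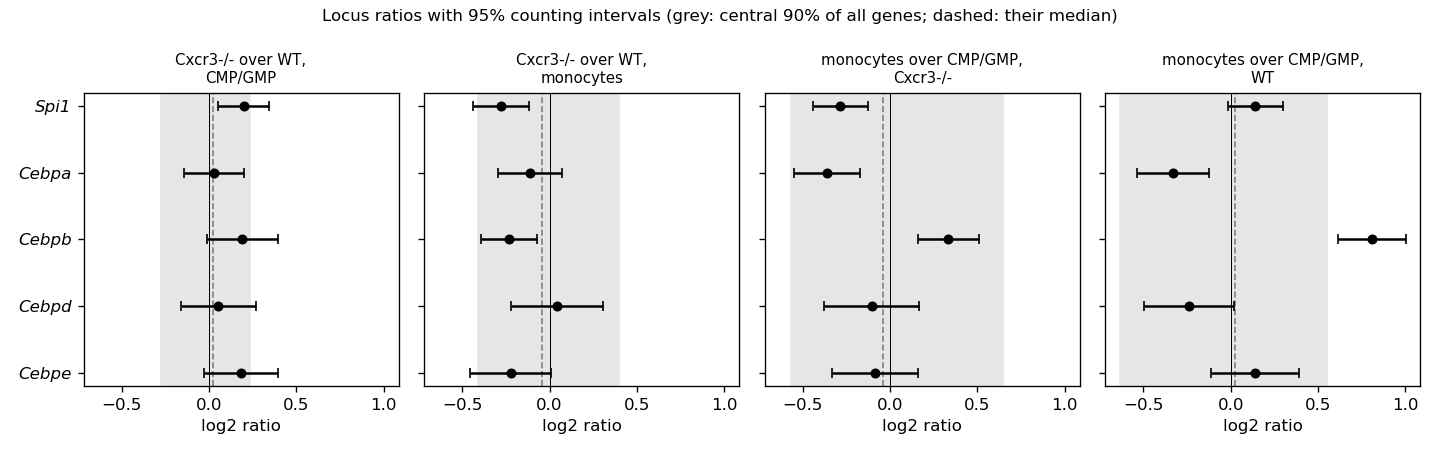
Log2 ratio of summed scaled tags over the shared regions of each locus, with 95% counting intervals, for 5 genes and 4 comparisons; the grey band holds the central 90% of all genes and the dashed line is their median. Cebpb in WT cells, at 0.81, lies beyond the band. Spi1, Cebpa, Cebpb and Cebpe have opposite signs in the 2 genotype panels, and the intervals of Spi1 alone leave out 0 in both. With background scaling the cell-type ratios of Spi1, Cebpd and Cebpe in Cxcr3-/- cells turn. So do those of Cebpa and Cebpd in WT cells and the Cebpd genotype ratio in monocytes.

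Regions past 1.5-fold were counted where both libraries had a call and their mean was at least 30 tags. For Cxcr3-/- over WT in monocytes, 3 of 28 such regions were lower, all 3 in Spi1, and 0 were higher, against a background of 5.37% lower and 4.52% higher over all regions. In CMP/GMP 3 of 34 were higher, 1 each in Cebpa, Cebpd and Cebpe, and 0 lower, against 3.23% higher and 2.52% lower. The median region ratio was −0.21 in monocytes against 0.01 over all regions, and 0.14 in CMP/GMP against 0.04. The shares past 1.5-fold were 10.7% lower in monocytes and 8.82% higher in CMP/GMP, each from 3 regions. Both lie above the background, and with so few regions nothing was read from them.

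For monocytes over CMP/GMP in Cxcr3-/- cells, 5 of 30 regions were higher and 9 lower, against 24% and 18.1% of all regions. In WT cells 7 of 26 were higher and 3 lower, against 26.6% and 12.7%. The shares of WT cells were near the background, and of the 9 lower regions in Cxcr3-/- cells 3 each were in Spi1 and Cebpa. Cebpb supplied 5 of the 7 higher regions of WT cells, of its 7 with enough tags. By presence, 11 of the 101 regions, or 10.9%, were called in both monocyte libraries and in neither CMP/GMP library, against 14.4% of all regions, and 8, or 7.92%, in both CMP/GMP libraries alone, against 7.28%. The count in CMP/GMP alone was 14 with lists of equal length. The share of all regions with such lists is not given here, so nothing was read from that rise.

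**Figure D5:**
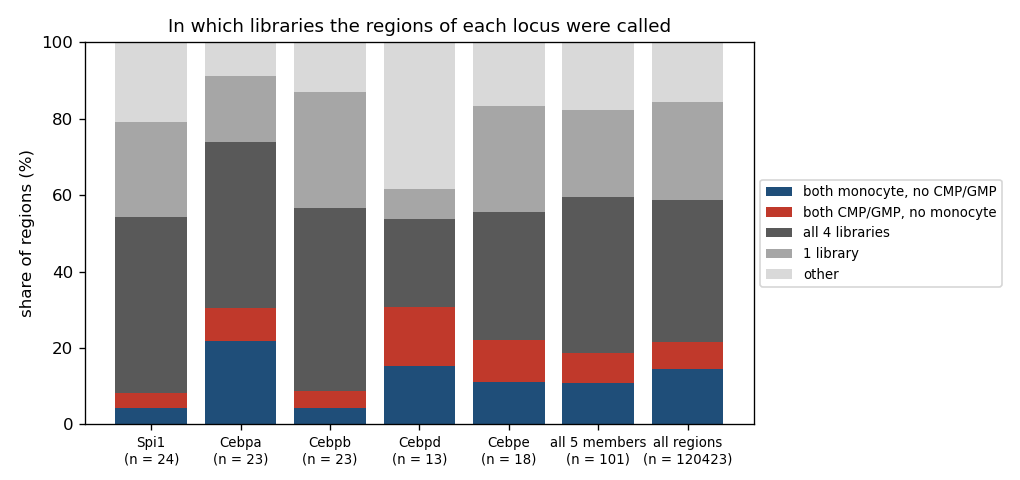
Share of the regions of each locus, of all 5 loci and of all 120423 regions by the libraries in which they were called. Monocyte-only regions make up 21.7% of the Cebpa regions and 14.4% of all regions, and Cebpd has the smallest share called in all 4 libraries, 23.1%.

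Genes around these factors were taken from 3 lists: 5 relatives, 16 partners and regulators, and 16 known targets. Of all genes, 43.5% had a Cxcr3-/- over WT ratio above 0 in the monocyte pair and 56.9% in the CMP/GMP pair, so both pairs have a general tilt. In the monocyte pair 4 of 16 target loci were above 0 and 12 below, with a median of −0.13 against −0.05 for all genes, and in CMP/GMP 13 of 16 were above 0, with a median of 0.08 against 0.03. No target locus passed 1.5-fold in either, and of all genes 0.946% were past it upwards and 0.442% downwards in the monocyte pair. Those farthest from 0 in monocytes were Fcgr3, an Fc receptor gene, at −0.37 (−0.56 to −0.18), Cd68, a lysosomal macrophage marker, at −0.32 (−0.48 to −0.17), and Adgre1, which encodes F4/80, at −0.29 (−0.51 to −0.08). Medians of the cell-type marker lists in the monocyte pair ranged from −0.32 for 4 T-cell markers to 0.06 for 6 CMP/GMP markers. The target median of −0.13 lies within that range.

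Of the 15 partner loci with enough shared regions, 6 were above 0 and 9 below in the monocyte pair, near the share of all genes, with a median of −0.11, and 11 were above 0 in CMP/GMP, with a median of 0.04. Irf8, a partner of PU.1 in monocyte development, was at −0.26 in monocytes (−0.42 to −0.10) and 0.24 in CMP/GMP (0.03 to 0.45). Fos, an AP-1 subunit, was at −0.28 (−0.45 to −0.12) in monocytes and 0.27 (0.11 to 0.44) in CMP/GMP. Both had the signs of Spi1. Tal1 had the opposite signs, at 0.12 in monocytes (−0.07 to 0.31) and −0.18 in CMP/GMP (−0.37 to 0.02). Gata2 was the partner farthest from 0 in monocytes, at −0.32 (−0.80 to 0.15), and stood at 0.07 in CMP/GMP (−0.21 to 0.35). Of the relatives 1 of 5 was above 0 and 4 below in monocytes, a count too small to set against all genes, with Spib, the closest PU.1 relative, at −0.33 (−0.57 to −0.09), and 2 of 5 above 0 in CMP/GMP.

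Between cell types the list medians lay near 0 and single loci lay far from it. In Cxcr3-/- cells the medians were −0.10 for relatives, −0.02 for partners and −0.15 for targets, against −0.04 for all genes, and in WT cells −0.09, 0.04 and 0.07, against 0.03. Klf4, a monocyte factor, was the highest partner, at 0.75 in Cxcr3-/- cells (0.46 to 1.05) and 0.89 in WT cells (0.56 to 1.22). Myb, a progenitor factor, was at −0.62 in Cxcr3-/- cells (−0.94 to −0.31) and −0.74 in WT cells (−1.07 to −0.40), and the WT value would be above 0 with background scaling. Ctsg, a granule protease gene, was lowest, at −1.51 in Cxcr3-/- cells (−1.92 to −1.13) and −1.62 in WT cells (−2.06 to −1.20).

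The likeness of each member to these 37 genes was measured as the distance between their 4 centred log2 scaled signals, over regions called in all 4 libraries. It is a description over 4 libraries. Nearest to Spi1 were Irf8, at a distance of 0.057, Cd68 at 0.058 and Egr2 at 0.11. Nearest to Cebpa were Gfi1 at 0.15, Elane at 0.18 and Stat3 at 0.18, and nearest to Cebpb were Itgam at 0.12, Csf1r at 0.22 and Irf4 at 0.22. Cebpd, with 3 such regions, was nearest to Lmo2 at 0.053, Cebpg at 0.074 and Mpo at 0.12, and Cebpe to Egr1 at 0.073, Tyrobp at 0.097 and Cebpz at 0.099.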

How the data were processed

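Omni-ATAC-seq was measured in 4 libraries, 1 per group. Per the submitters' processing notes, Trim Galore, Bowtie2, SAMtools and mm10 were used, and which peak caller was run was not given in the sources used here. Sequencing in duplicates is mentioned in the labels, with no word on pooling. The deposited score per interval was left aside, and the summit offset in the authors' files gave the summit position. The deposited fold enrichment is a ratio of summit pileup to background, and the deposited −log10 p and −log10 q are each interval's own values from the authors' caller. Fold and −log10 p together gave the whole-number tag pileup (Poisson background, 1 added tag, tolerance 0.001) for all intervals but 1 of WT monocytes.

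Overlapping intervals were merged, keeping the highest pileup per library. Factors of 0.846 for Cxcr3-/- monocytes, 1.08 for WT monocytes, 1.35 for Cxcr3-/- CMP/GMP and 0.826 for WT CMP/GMP were medians over 44591 regions called in all libraries. Ratios compare tags summed over regions called in both libraries, with exact intervals based on Clopper-Pearson limits. Gene positions come from RefSeq GRCm38.p6. All genes listed matched. The named regions were taken from those over a gene end or start, the strongest, those called in 1 cell type alone, those with the largest ratios and those at a known distance. Recovery and ratios were tested on simulated data. Python 3.11.15, numpy 2.4.6, pandas 2.3.3, scipy 1.17.1 and matplotlib 3.10.9 were used. Members and lists were chosen with earlier results of these data known. Alternatives were other scaling, flanks, thresholds and list lengths.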

Additional observations from a re-analysis of the deposited data

Results flagged for a closer look

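The Spi1 locus had a log2 ratio of Cxcr3-/- over WT of 0.20 in CMP/GMP (0.05 to 0.35) and −0.28 in monocytes (−0.44 to −0.12). Both counting intervals leave out 0, on opposite sides, with 1 library in each group. The difference between the cell types was not tested. These signs were not particular to Spi1. Cebpa was at 0.03 in CMP/GMP and −0.11 in monocytes, Cebpb at 0.19 and −0.23, and Cebpe at 0.18 and −0.22. Of all genes, 56.9% were above 0 in the CMP/GMP pair and 43.5% in the monocyte pair.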

How the results depend on the processing

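No paired analysis was possible because each group has 1 library and no replicate number, and for the same reason no library could be left out. Scaling by background moved most ratios. For Cxcr3-/- over WT it gave 0.38 for Spi1 and 0.21 for Cebpa in CMP/GMP. In monocytes it gave −0.65 for Spi1, −0.48 for Cebpa, −0.60 for Cebpb, −0.33 for Cebpd, −0.59 for Cebpe and −0.89 for Spi1 near the gene. For monocytes over CMP/GMP in Cxcr3-/- cells it gave 0.034 for Spi1, −0.043 for Cebpa, 0.65 for Cebpb, 0.21 for Cebpd, 0.23 for Cebpe and −0.081 for Spi1 near the gene. In WT cells it gave 1.02 for Spi1, 0.54 for Cebpa, 1.68 for Cebpb, 0.64 for Cebpd, 1.01 for Cebpe and 1.21 for Spi1 near the gene. It turned the sign of 3 of 5 loci in Cxcr3-/- cells (Spi1, Cebpd, Cebpe), 2 of 5 in WT cells (Cebpa, Cebpd) and 1 of 5 in the monocyte genotype pair (Cebpd). Spi1 in Cxcr3-/- cells and Cebpa in WT cells had counting intervals that left out 0. Of single regions with enough tags it turned 4 of 30 in Cxcr3-/- cells, 10 of 26 in WT cells, 7 of 28 in the monocyte genotype pair and 2 of 34 in the CMP/GMP pair, among them in WT cells the Cebpa element, to 0.10, and the Mzt2 region, to 0.23. These shifts are the same for all regions and follow from the construction of the scaling. Scaling by total summit pileup moved Spi1 in Cxcr3-/- cells to −0.45.

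With a flank of 10 kb, Spi1 was at −0.52 in the monocyte genotype pair and at 0.34 for monocytes over CMP/GMP in WT, Cebpb at 0.10 in Cxcr3-/- and 0.39 in WT, and Cebpe at −0.40 in Cxcr3-/-. With 100 kb, Cebpd was at 0.21 in Cxcr3-/- and Cebpe at 0.41 in WT. The interval counts of Cxcr3-/- monocytes, WT monocytes, Cxcr3-/- CMP/GMP and WT CMP/GMP were 24, 33, 32 and 26 within 10 kb and 106, 141, 119 and 106 within 100 kb. The unweighted mean gave 0.11 for Cebpb in Cxcr3-/- and −0.51 for Cebpd in WT. Without the strongest region Cebpb was at 0.15 and Cebpe at 0.33 in Cxcr3-/-, and Cebpd at −0.50 in WT. Lists of equal length gave 14 regions called in CMP/GMP alone in place of 8, without the matching share of all regions. The cause of these moves was not tested. Regions called in all 4 libraries, −log10 q of at least 5, 50% reciprocal overlap and subtraction of the gene-density median, the last added after the data had been seen, moved none of these values past its counting interval or 1.5 times its count. The Spi1 window near the gene, also added then, moved with background scaling alone among its 5 alternatives. Weak regions have wide counting intervals, so regions with a mean below 30 tags were left out of the 1.5-fold counts. Some of their ratios are given above with their intervals, and they enter the sign counts and locus sums.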
